A study of Mus musculus with 7 samples.

Results

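5-Formylcytosine (5fC) was examined at 10 genes that encode transcription factors of the pluripotency network: Pou5f1, Sox2, Nanog, Klf4, Klf2, Esrrb, Tbx3, Zfp42, Prdm14 and Sall4. The genes were chosen by name, not by any measured value, and all 10 had a value in every library, out of 22062 protein-coding genes of GENCODE release M1 on mm9 that did. For each gene, 3 stretches were measured: the transcription start site (TSS) with 1 kb on either side, the gene record from end to end, and the 20 kb upstream of the TSS. The TSS was the start of the protein-coding transcript with the longest coding sequence. 6 pulldown libraries were compared, 2 biological replicates from each of 3 conditions of J1 mouse embryonic stem (ES) cells. The wild-type cells (libraries BHAM359 and BHAM470) were grown on γ-irradiated mouse embryonic fibroblast feeders, and their cultures could therefore hold some feeder DNA. The siRNA control (BHAM479 and EAR001) and TDG KD (BHAM480 and EAR003) cells were grown without feeders and transfected repeatedly, with a non-targeting siRNA or with a pool of siRNAs against Tdg, so that wild type and siRNA control differ in feeders and transfection together. RNA was not analysed here, so neither the loss of Tdg transcript nor the expression of these 10 genes was checked.

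5fC arises when TET enzymes oxidize 5-methylcytosine by way of 5-hydroxymethylcytosine, and thymine DNA glycosylase (TDG) cuts 5fC out of DNA so that base excision repair can put back an unmodified cytosine. Oct4, the product of Pou5f1, and Sox2 bind DNA as a pair and, with Nanog, form the core of the circuit that keeps ES cells undifferentiated. The other members feed into this circuit: Klf2 and Klf4 are Krüppel-like zinc finger proteins, Esrrb is an orphan nuclear receptor, Tbx3 a T-box factor, Zfp42 (Rex1) a zinc finger protein widely used as a marker of naive ES cells, Prdm14 a PR-domain protein that restrains DNA methyltransferases, and Sall4 a zinc finger partner of Oct4.

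The members differed in the CpG content of their promoters, which the following 200 bases immediately upstream of the gene records of Klf2, Sox2, Pou5f1, Nanog and Zfp42 show. They are read from the mm9 sequence on the strand of each gene, with every CpG in capitals, and none overlaps an annotated exon. They are shown because Klf2 was enriched in every library, Sox2 in only 2, Pou5f1 and Nanog in 4 and 5, and Zfp42 in only 1.
Klf2, chr8:74842732-74842931, plus strand: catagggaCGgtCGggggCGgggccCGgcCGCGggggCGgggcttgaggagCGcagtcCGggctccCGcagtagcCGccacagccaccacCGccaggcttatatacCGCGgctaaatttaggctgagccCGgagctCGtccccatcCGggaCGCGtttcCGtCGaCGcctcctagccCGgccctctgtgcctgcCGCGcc
Sox2, chr3:34548727-34548926, plus strand: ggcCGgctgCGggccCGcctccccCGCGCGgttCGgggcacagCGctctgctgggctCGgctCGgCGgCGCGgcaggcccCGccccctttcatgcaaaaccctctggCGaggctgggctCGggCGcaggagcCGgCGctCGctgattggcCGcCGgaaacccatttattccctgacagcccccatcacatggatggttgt
Pou5f1, chr17:35642782-35642981, plus strand: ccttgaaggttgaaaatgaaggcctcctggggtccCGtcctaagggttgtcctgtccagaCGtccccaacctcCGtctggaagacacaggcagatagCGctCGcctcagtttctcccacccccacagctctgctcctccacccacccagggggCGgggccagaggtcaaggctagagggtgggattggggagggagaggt
Nanog, chr6:122657307-122657506, plus strand: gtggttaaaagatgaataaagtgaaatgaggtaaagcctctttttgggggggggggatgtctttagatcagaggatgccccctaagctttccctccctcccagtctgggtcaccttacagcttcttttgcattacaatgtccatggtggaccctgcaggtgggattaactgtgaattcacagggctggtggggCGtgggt
Zfp42, chr8:44392364-44392563, minus strand: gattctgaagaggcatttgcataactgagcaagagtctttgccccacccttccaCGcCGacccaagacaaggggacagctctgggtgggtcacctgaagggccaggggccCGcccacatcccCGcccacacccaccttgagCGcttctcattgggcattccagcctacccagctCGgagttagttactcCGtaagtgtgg
The stretch of Klf2 held 25 CpGs and that of Sox2 22, against 6 for Pou5f1, 1 for Nanog and 7 for Zfp42. Over the whole TSS window of 2 kb, Klf4 held the most CpGs of the 10 genes (179), followed by Sox2 (159), Klf2 (151), Tbx3 (138), Esrrb (100), Sall4 (94), Prdm14 (80), Zfp42 (50), Pou5f1 (44) and Nanog (33). By the observed to expected CpG ratio in windows of 500 bp, 7 promoters were of the high CpG class, those of Nanog and Zfp42 were intermediate, and that of Pou5f1 was low, although 58.1% of its window was G or C.

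The authors' caller cut the genome into domains, each called enriched, background or unconfident and each with a value that gives how many more reads the pulldown had than the input in 100 bp. From this value the mean of the library was subtracted and the rest was divided by the depth of the pulldown. This gives a level in reads (pulldown less input) per kb per 10 M (mega) uniquely placed pulldown reads, 0 being the library mean. The authors' difference is not scaled for depth, so the input, of 26.5 M reads, weighs differently in each library. The mean value per bin was 0.793 in BHAM359 (45.9 M reads) and −0.277 in BHAM480 (20.4 M). How far this moves levels between libraries was not tested. A TSS was called enriched with at least 50% of its window in enriched domains. Depth ranged from 20.4 to 45.9 M uniquely placed reads. The libraries differed in the grain of their domains. Enriched stretches were 700 bp wide at the median in BHAM359 and 5900 to 24550 bp in the other 5, so a level is local in BHAM359 and an average over several kb or more elsewhere. BHAM480 stood apart, with 504.9 Mb unconfident against 0.214 to 6.30 Mb in the other 5, and counts that rest on it are also given without it. With 2 libraries a condition, p-values measure the spread between these libraries only.

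Most of the 10 genes carried enriched 5fC at their TSS, except in BHAM480. In wild type, 9 of 10 were enriched in BHAM359, where 51.3% of all protein-coding genes were, and 8 of 10 in BHAM470, against 47.1% of all genes. The count in BHAM359 rests on windows just past the limit of 50%, since Sall4, Zfp42, Nanog, Tbx3 and Esrrb were enriched over 54.1 to 61.6%. It fell to 4 of 10 when 90% of the window was required (19.3% of all genes), and to 3 of 10 when the lowest 25% of domains were dropped (36.6%). In the siRNA control the counts were 7 of 10 in BHAM479 (43.6% of all genes) and 6 of 10 in EAR001 (40.0%). In TDG KD they were 1 of 10 in BHAM480 (15.3%) and 9 of 10 in EAR003 (53.5%). No member was unenriched in every library, a state that 31.5% of all genes had.

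Both wild-type replicates called 7 members enriched (Pou5f1, Nanog, Klf2, Esrrb, Tbx3, Prdm14 and Sall4), against 37.8% of all genes, a count that fell to 3 at the limit of 90% (17.1%) and to 2 with the lowest domains dropped (25.6%). Both siRNA control replicates called 5 (Nanog, Klf2, Esrrb, Prdm14 and Sall4), against 33.5%, and 3 under either of these rules (31.3 and 27.8%). With the window placed at the 5′ end of the gene record, Sall4 was not called in BHAM359 or BHAM479. Both wild-type replicates then called 6 members (37.5% of all genes) and both control replicates 4 (33.2%). The count over all 5 libraries other than BHAM480 was then 4 (25.7%). Both TDG KD replicates called only Klf2, against 14.5%, and only Klf2 was enriched in all 6 libraries, as were 10.7% of all genes. Without BHAM480 the remaining TDG KD library called 9 members, and 5 members (Nanog, Klf2, Esrrb, Prdm14 and Sall4) were enriched in all of the other 5 libraries, against 26.0% of all genes. Of the members BHAM480 did not call, Esrrb, Tbx3, Prdm14, Pou5f1 and Klf4 lay mostly in unconfident sequence there, and Sox2, Nanog, Zfp42 and Sall4 in background. When unconfident sequence was counted as enriched, BHAM480 called 6 members, and 48.1% of all genes, and both TDG KD libraries the same number, against 41.3%. No member was enriched in both control libraries and in neither TDG KD library (1.65% of all genes), and none the other way round (0.761%).

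**Figure D1:**
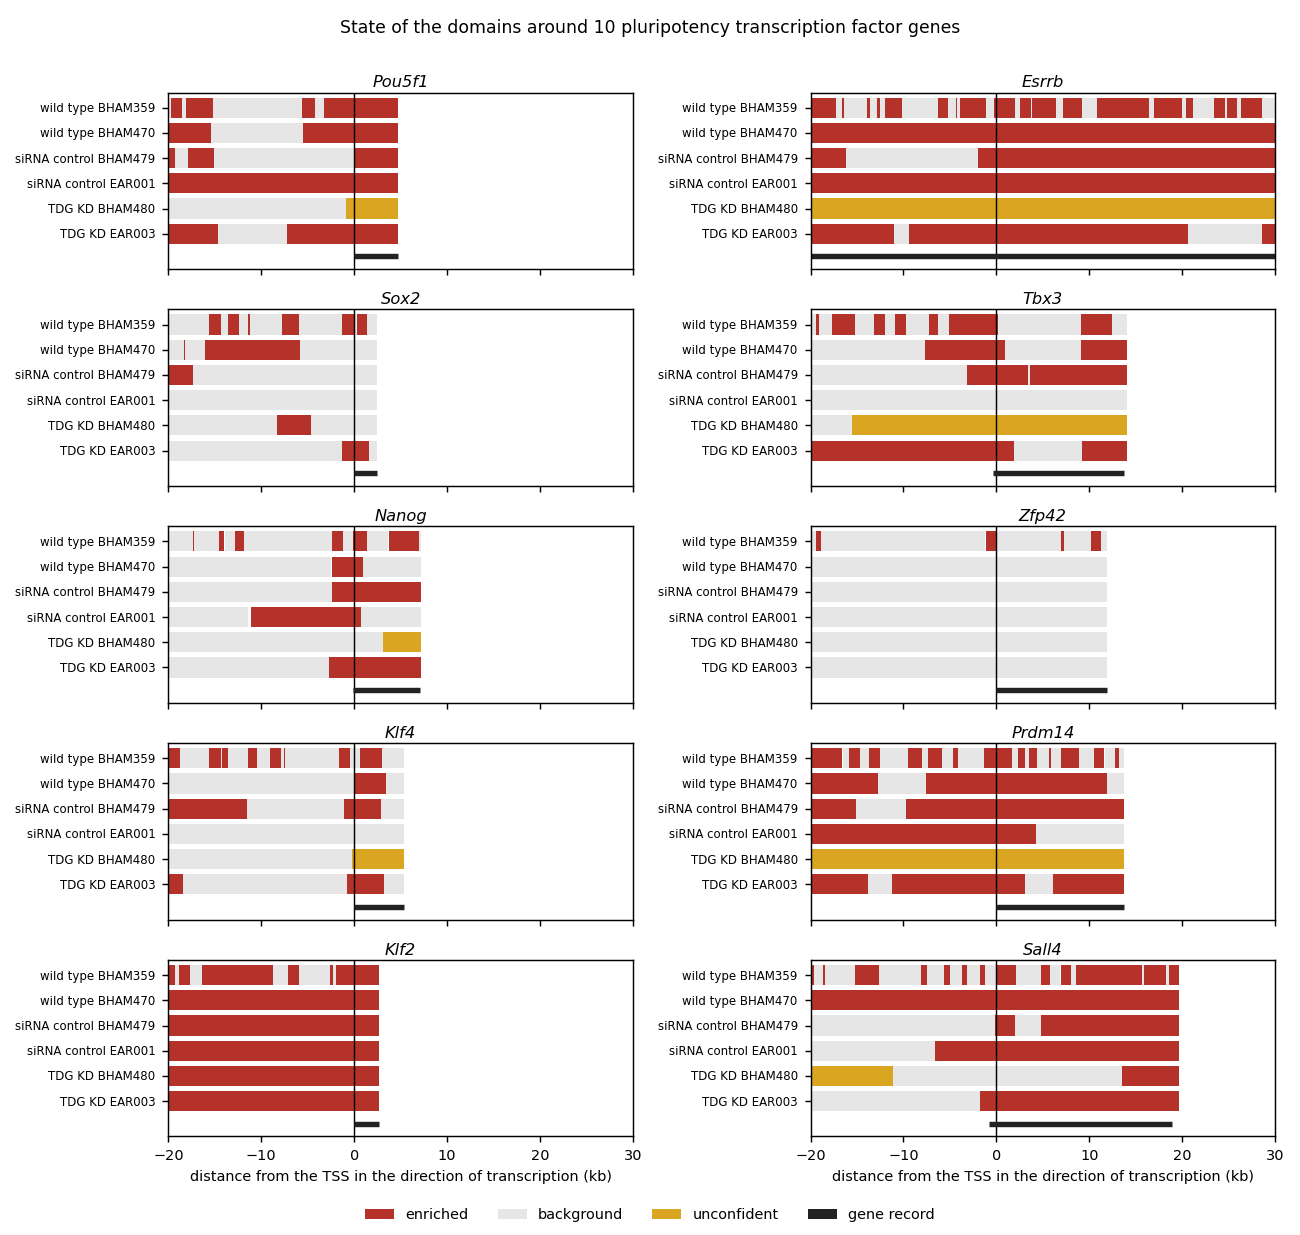
State of the deposited domains around the TSS of the 10 genes, 1 row per library, as distance from the TSS in kb from 20 kb upstream to the end of the gene (at most 30 kb downstream). Red marks enriched, grey background and yellow unconfident sequence, and the black bar is the gene record. Klf2 is red throughout in 5 libraries and Zfp42 grey throughout in 5.

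Among the core factors, Pou5f1 (chr17:35642982-35647721, plus strand) had TSS levels of 4.06 and 3.19 in wild type, 0.647 and 1.13 in the siRNA control, and 1.10 and 2.78 in TDG KD, the BHAM library first in each siRNA pair. Both wild-type libraries lay above both control libraries, as at 42.7% of all genes, and above both TDG KD libraries, as at 22.5%. The control and TDG KD ranges overlapped narrowly. The enrichment reached over the whole gene: 97.1 to 100% of the gene record was enriched in 5 libraries, the exception being BHAM480 with 0%. In BHAM479 the TSS itself fell in a background domain of 15.2 kb that ended 138 bp past it, so that only 43.1% of its TSS window was enriched.

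Sox2 (chr3:34548927-34551383, plus strand) was different. Its TSS level was 5.38 in BHAM359 and 3.93 in EAR003, above 91.9% and 95.2% of all genes, and within 0.275 of 0 in the other 4 libraries, namely −0.275 (BHAM470), −0.0147 (BHAM479), 0.127 (EAR001) and −0.133 (BHAM480). The high and the low values fell within wild type and within TDG KD, so the replicates of each differed more than the means of any 2 conditions did. In both high libraries the enriched stretch began at the same position, −1356 from the TSS. It was 2.9 kb wide in EAR003, while in BHAM359 it was split into 1.5 kb over the TSS and 1000 bp just inside the gene, the latter with a level of 9.61. In the 4 other libraries the TSS lay inside a background domain of 21.8 to 127.5 kb, far wider than the enriched stretch.

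Nanog (chr6:122657507-122664651, plus strand) had TSS levels of 2.18 and 2.29 in wild type, 1.95 and 0.365 in the siRNA control, and −0.612 and 2.93 in TDG KD. Wild type exceeded both controls, and the lowest and the highest values were the 2 TDG KD libraries. The highest level found in a stretch of at least 500 bp at any of the 10 loci was just upstream of this gene: an enriched domain of BHAM359, 1.1 kb wide and at positions −2335 to −1236 from the TSS, with a level of 12.6 against 4.85 for the domain over the TSS. The same stretch was also enriched in 4 of the other 5 libraries. Its central 200 bases on the gene's strand are shown because of this level, with CpGs in capitals.
Nanog, chr6:122655701-122655900, plus strand: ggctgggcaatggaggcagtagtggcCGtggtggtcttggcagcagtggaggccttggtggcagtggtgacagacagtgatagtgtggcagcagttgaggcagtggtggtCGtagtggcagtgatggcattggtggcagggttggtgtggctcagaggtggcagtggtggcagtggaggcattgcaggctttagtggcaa
This stretch held 2 CpGs, and 46.0% of its bases were G. The letters GTGG occurred 14 times in it, against 0 to 5 times in the upstream stretches printed above. Whether such repeated letters affect the level was not tested.

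The Krüppel-like genes held both the most and some of the least uniform enrichment. Klf2 (chr8:74842932-74845555, plus strand) had TSS levels of 4.83 and 2.53 in wild type, 2.75 and 1.90 in the siRNA control, and 1.88 and 3.67 in TDG KD. All 6 values were above the library mean and above 83.3 to 98.0% of all genes, and the conditions overlapped. In the 5 libraries other than BHAM359 a single enriched domain of 211.6 to 468.6 kb covered the TSS, the gene and the 20 kb upstream, together with 7 to 17 protein-coding gene starts, so the value of Klf2 in these libraries is that of its neighborhood. BHAM359 resolved a domain of 8.7 kb around the gene and 5 narrower ones upstream, and all 6 were enriched in the 5 other libraries.

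Klf4 (chr4:55540013-55545347, minus strand) had TSS levels of 2.16 and 2.42 in wild type, 3.18 and −0.0525 in the siRNA control, and 0.315 and 2.94 in TDG KD. It was high in 1 library of each siRNA condition and near the library mean in the other. In BHAM359 the TSS lay in a background gap of 1.1 kb between an enriched domain that ended at position −461 and one of 2.4 kb that began 640 bp inside the gene and had a level of 8.39, the highest of the locus at widths of 500 bp or more. BHAM470, BHAM479 and EAR003 each had an enriched domain of 3.5 to 4.0 kb over the start of this gene, and EAR001 a background domain of 373.4 kb.

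**Figure D2:**
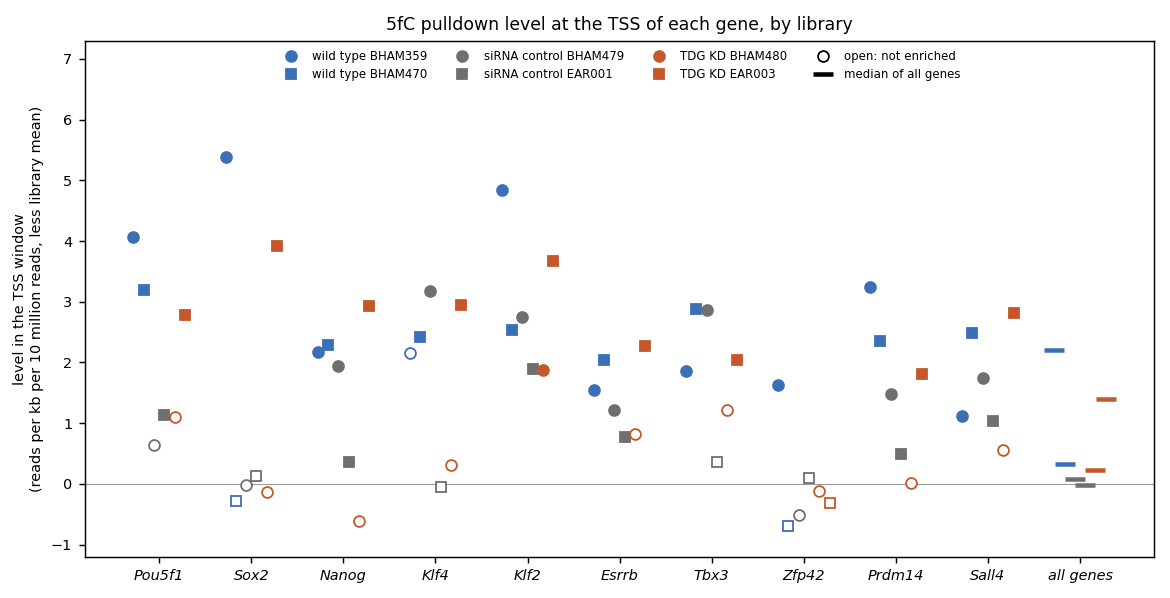
Level in the TSS window (reads per kb per 10 M reads less the library mean, y axis) for each gene and library. Filled points are enriched TSS windows and open points are not, colors give the condition and bars on the right the median of all genes. Sox2 is above 3.9 in 2 libraries and within 0.275 of 0 in 4, and Zfp42 is above 0.1 in 1 library.

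Zfp42 (chr8:44380422-44392363, minus strand) had the lowest mean TSS level of the 10 genes. Its TSS level was 1.63 in BHAM359, where a domain of 1.2 kb from position −1081 to 118 from the TSS was enriched, and −0.690, −0.520, 0.0965, −0.115 and −0.318 in BHAM470, BHAM479, EAR001, BHAM480 and EAR003. In these 5 libraries the whole locus, gene and upstream sequence included, lay in 1 background domain of 89.2 to 484.9 kb. None of the 4 narrow domains that BHAM359 placed at this locus was enriched in any other library. Klf2 and Zfp42 are on the same chromosome, and in all 4 siRNA libraries chromosome 8 had the highest level in background sequence of the 19 autosomes (−0.181, 0.172, −0.00669 and −0.463 in BHAM479, EAR001, BHAM480 and EAR003, against autosome medians of −0.476, −0.267, −0.391 and −0.684). In wild type it ranked 16 and 14 of 19. With the mean of chromosome 8 subtracted in place of the library mean, the siRNA levels of Klf2 were 1.59, 0.881, 1.03 and 2.46 and remained above 0 while those of Zfp42 ran from −1.67 to −0.918. What raised this chromosome was not tested.

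Esrrb (chr12:87702067-87862578, plus strand) is the longest member, with 160.5 kb, and its chosen TSS lies 60527 bp inside the gene record, so that the 20 kb upstream are also within it. The TSS level was 1.54 and 2.05 in wild type, 1.22 and 0.777 in the siRNA control and 0.823 and 2.27 in TDG KD. Both control values were below both wild-type values, and the TDG KD values lay on either side. At the 5′ end of the gene record the level was higher in BHAM359, at 4.34, and 2.05, 1.43, 0.777, 0.823 and 2.29 in BHAM470, BHAM479, EAR001, BHAM480 and EAR003. BHAM359 placed 55 enriched domains over this locus, of which 26 were also enriched in 4 of the other libraries. Between 60.6 and 88.0% of the gene was enriched in 5 libraries, and 12.8% in BHAM480.

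Tbx3 (chr5:120120678-120134733, plus strand) had TSS levels of 1.86 and 2.88 in wild type, 2.86 and 0.367 in the siRNA control, and 1.22 and 2.04 in TDG KD, and EAR001 gave the lowest value. Its enrichment leaned to the upstream side in BHAM359, where the domain over the TSS was 5.3 kb wide and ended 167 bp inside the transcript. Prdm14 (chr1:13103538-13117244, minus strand) had TSS levels of 3.25 and 2.36 in wild type, 1.49 and 0.498 in the siRNA control and 0.0182 and 1.80 in TDG KD. Wild type lay above all 4 siRNA libraries, and the window was 100% enriched in all libraries but BHAM480. TDG KD lay below wild type without overlap at 2 of the members (Pou5f1 and Prdm14), against 22.5% of all genes. Sall4 (chr2:168573832-168593443, minus strand) had TSS levels of 1.11 and 2.49 in wild type, 1.75 and 1.04 in the siRNA control and 0.558 and 2.81 in TDG KD, and all 3 conditions overlapped. The domain over its TSS was 2.2 kb wide in BHAM359 and in BHAM479, with starts 100 bp apart, and 155.4 to 476.6 kb wide in BHAM470, EAR001 and EAR003. The chosen TSS of Sall4 lies 742 bp inside the gene record. At the 5′ end of the record the level was 1.40 in BHAM359 and 0.685 in BHAM479, and neither window was enriched there.

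**Figure D3:**
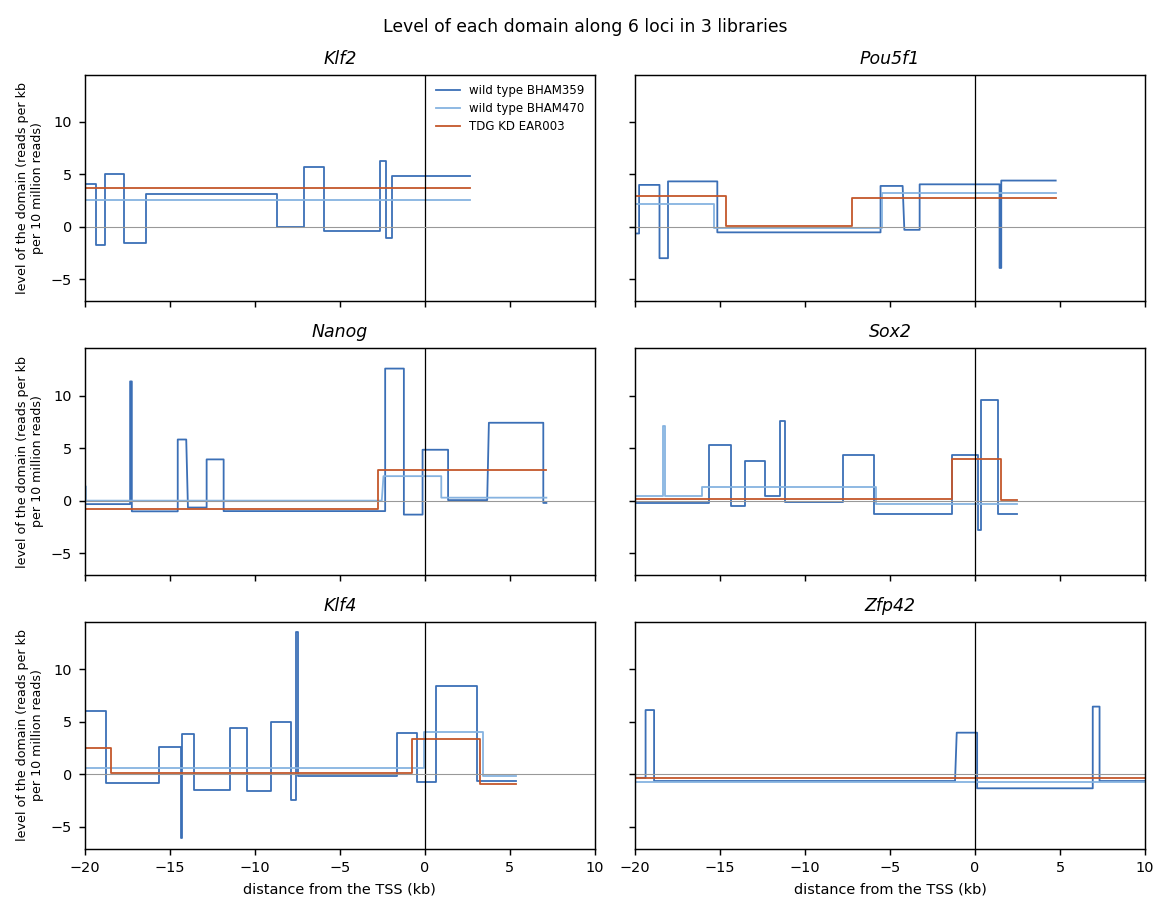
Level of each deposited domain (reads per kb per 10 M reads less the library mean, y axis) along 6 loci, from 20 kb upstream to the end of the gene (at most 10 kb), in 2 wild-type libraries and 1 TDG KD library. BHAM359 shows narrow peaks, such as that of 12.6 upstream of Nanog, within stretches to which the other 2 libraries give 1 value.

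Ordered by the mean over the 6 libraries, the TSS levels were 2.92 ± 1.14 (SD, n = 6) for Klf2, 2.15 ± 1.38 for Pou5f1, 1.87 ± 0.972 for Tbx3, 1.83 ± 1.37 for Klf4, 1.63 ± 0.884 for Sall4, 1.57 ± 1.19 for Prdm14, 1.52 ± 1.35 for Nanog, 1.50 ± 2.49 for Sox2, 1.45 ± 0.623 for Esrrb and 0.0140 ± 0.840 for Zfp42. Neighbors in this order differed by less than the SD of either, except that Zfp42 lay below Esrrb by more than the SD of both, and 8 genes lay between 1.45 and 2.15. This SD mixes the conditions and differences between libraries that the genes share, so it does not measure how firm the order is. Within BHAM359, BHAM470, BHAM479, EAR001, BHAM480 and EAR003, Klf2 ranked 2, 3, 3, 1, 1 and 2 among the members. Zfp42 ranked 8, 10, 10, 9, 8 and 10. In BHAM359, the deepest library, 4 of 10 members were above the median of all genes (2.21), and in EAR001 and EAR003 9 of 10 were (medians −0.0220 and 1.40).

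The question of the siRNA comparison is whether loss of TDG changes 5fC at a gene relative to the rest of the library. The pulldown gives relative enrichment, not the absolute amount of 5fC. Since the library mean was subtracted and the rest divided by depth, a change shared by the whole genome would not show. The paper's mass spectrometry found more 5fC overall after TDG KD. At the TSS of the 10 genes no difference between TDG KD and siRNA control exceeded the spread between replicates. The largest was at Sox2, 1.84 ± 1.73 (SE) higher in TDG KD with a 95% interval from −1.89 to 5.57, followed by Pou5f1 with 1.05 ± 1.31 (−1.77 to 3.87). The other 8 lay between −0.0816 (Prdm14) and 0.548 (Esrrb), and every member had an adjusted p of 0.9996 (limma over all genes, two-sided, Benjamini-Hochberg). Of the members 8 were higher in TDG KD, and 3 when levels were divided by the SD of each library. In all, 0 of 22062 genes passed in either direction (0% higher and 0% lower), and 174 had an unadjusted p under 0.05. The median difference of the members was 0.176 beside 0.257 over all genes. The intervals are wide: for Nanog the difference was 0.00346 with an interval from −2.83 to 2.84, which takes in a rise or a loss of the whole wild-type level.

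The 2 pairs of siRNA libraries, each of which shares the first letters of its names (whether these mark a batch is not given), gave mostly opposite signs. Between BHAM480 and BHAM479, TDG KD was lower at 8 of 10 genes, by 2.87 at Klf4, 2.56 at Nanog and 1.64 at Tbx3, and higher at Pou5f1 (by 0.452) and Zfp42 (by 0.405). Between EAR003 and EAR001, TDG KD was higher at 9 of 10 genes, by 3.80 at Sox2, 2.99 at Klf4 and 2.57 at Nanog, and lower at Zfp42 alone. Only Pou5f1 moved the same way in both pairs. The spread of values within a library also differed in opposite directions. The SD of the deposited value per bin was 0.297 in BHAM479 and 0.175 in BHAM480, but 0.172 in EAR001 and 0.407 in EAR003. Whether the signs follow this spread was not tested. Over all genes the median difference was −0.200 in the BHAM pair and 0.868 in the EAR pair, so 9 of 10 members lay above the median of all genes in the EAR pair and 3 of 10 in the BHAM pair. No member's TDG KD libraries were both above or both below its control libraries at the TSS, as 10.9% and 12.2% of all genes were.

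**Figure D4:**
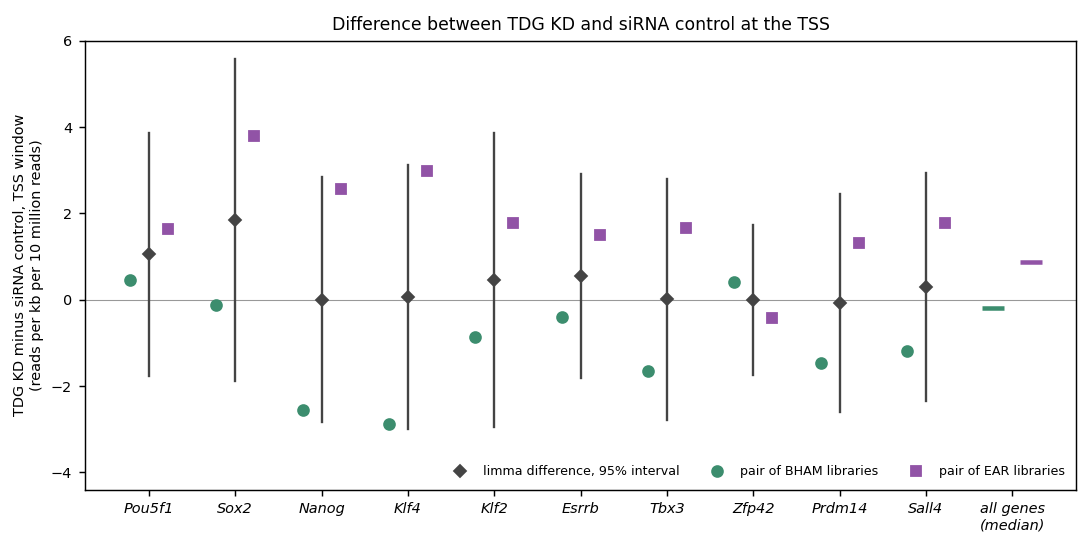
TDG KD minus siRNA control in the TSS window (reads per kb per 10 M reads, y axis) for each gene. Diamonds with lines are the limma difference and its 95% interval, circles and squares the difference within the BHAM and the EAR pair, and bars the median of all genes in each pair. All intervals include 0, and the pairs lie on opposite sides of 0 at 9 of 10 genes.

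Compared with wild type, the siRNA control was lower at the TSS of all 10 genes (5 of 10 when levels were divided by the SD of each library), but so were most genes: the median difference was −0.937 for the members and −1.10 over all genes. The largest differences were −2.74 ± 1.31 (SE, 95% interval −5.56 to 0.0848) at Pou5f1, −2.50 ± 1.73 at Sox2 and −1.81 ± 1.17 at Prdm14, each with an adjusted p of 0.469 (limma). At the other 7 genes the difference was −1.36 to −0.411, with adjusted p from 0.583 to 0.824. None of the 22062 genes passed (0% higher, 0% lower), while 1605 had an unadjusted p under 0.05. Both control libraries were below both wild-type libraries at Pou5f1, Nanog, Esrrb and Prdm14, 4 of 10 members against 42.7% of all genes, and above them at 0 members against 12.8%. Without BHAM470 the wild type is BHAM359 alone, so its spread is not measured. The difference was then −5.32 at Sox2 and −1.84 at Zfp42, beside a median of −1.77 over all genes. The wild-type level is then that of BHAM359, 5.38 at Sox2 and 1.63 at Zfp42, where BHAM470 had −0.275 and −0.690. The median over all genes was 2.21 in BHAM359 and 0.329 in BHAM470. Why the wild-type libraries differed was not tested.

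Upstream of the TSS the 10 genes were less enriched on average than at it in all libraries but BHAM480, and all genes were in all 6. Averaged over the members, 38.0 and 52.7% of the 20 kb were enriched in the wild-type libraries, 30.8 and 48.9% in the control and 11.8 and 48.3% in TDG KD, against 72.2, 75.0, 70.2, 58.8, 10.0 and 88.8% of the TSS windows in the same order. The means over all genes were 31.9, 39.1, 37.9, 38.3, 13.6 and 39.2% upstream and 49.7, 46.4, 43.3, 40.0, 15.2 and 51.9% at the TSS. The members thus lay below all genes upstream in BHAM479 and BHAM480 and above them in the other 4. At Nanog the TSS window was 56.8 to 100% enriched in 5 libraries, and the upstream sequence 11.7 to 14.2% in 4 of these and 56.5% in EAR001. Upstream sequence was covered from end to end at Klf2 in 5 libraries, at Esrrb in BHAM470 and EAR001, at Pou5f1 and Prdm14 in EAR001, at Sall4 in BHAM470 and at Tbx3 in EAR003. In the limma fit of this window no member passed in either comparison, while 0.0181% of genes were called higher and 0.150% lower in TDG KD than in control, and 0.272% higher and 1.10% lower in control than in wild type. These calls fell to 0 in both comparisons when levels were divided by the library SD. TDG KD lay above control without overlap at Esrrb and Tbx3 (10.8% of all genes) and below it at Nanog (13.2%). The control lay below wild type without overlap at 7 of 10 members (Pou5f1, Sox2, Nanog, Esrrb, Tbx3, Prdm14 and Sall4, against 42.2% of all genes) and above it at none (19.1%).

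Over the gene record, no member passed either (0% of 22045 genes called higher or lower in TDG KD, with 263 at an unadjusted p under 0.05, and 0% in the control against wild type, with 2082). The difference between TDG KD and control in this window ran from −0.374 at Prdm14 to 1.12 at Sox2, with adjusted p of 0.9985 to 0.9996 (limma). Between control and wild type the largest differences in the gene record were −2.20 ± 1.09 (SE) at Pou5f1 and −2.15 ± 0.896 at Klf4, both with an adjusted p of 0.348 (limma), while Tbx3 and Zfp42 were higher in the control by 0.541 and 0.383. The median was −1.43 for the members and −0.553 over all genes. Without BHAM470, with BHAM359 alone as wild type, the median difference over all genes was −0.819. The gene record of Sox2 was 46.6% enriched in BHAM359 and 62.8% in EAR003 and 0% in the other 4 libraries.

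**Figure D5:**
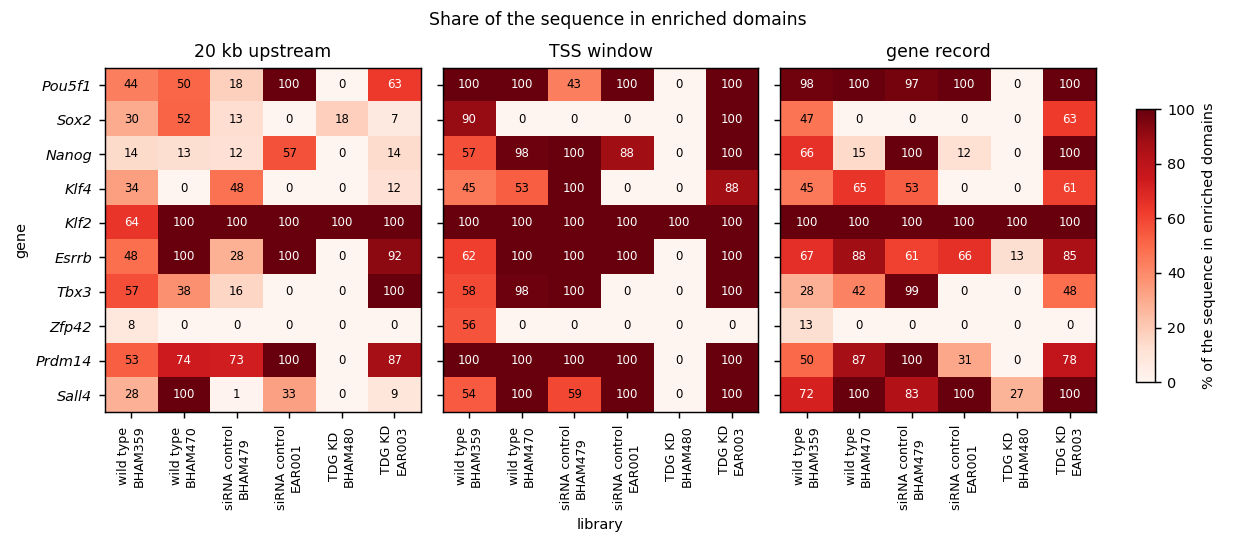
Percent of the sequence in enriched domains for the 20 kb upstream, the TSS window and the gene record of each gene (rows) in each library (columns). The row of Klf2 is at 100 except upstream in BHAM359, the row of Zfp42 is at 0 except in BHAM359, and the column of BHAM480 is at 0 for 9 of 10 TSS windows.

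BHAM359 had the narrowest domains and was used to compare sequence within a locus. It placed 123 enriched domains over the 10 loci, with a median width of 1200 bp, 62 of them upstream and 52 downstream of the TSS. Of these, 48 were enriched in at least 4 other libraries and 13 in none, 4 of them at Zfp42, and 3 each at Nanog, Klf4 and Esrrb. Esrrb alone gave 55 of the 123 domains and 26 of the 48. It also gave 20 of the 62 upstream of the TSS, which lay mostly inside its gene record. In BHAM359 enriched sequence held more CpGs per kb than the rest of the locus at all 10 genes: 40.8 against 18.9 at Sox2, 28.7 against 17.0 at Klf4, 27.3 against 13.3 at Sall4 and 21.0 against 9.15 at Klf2, but only 13.1 against 12.8 at Nanog. In the coarser libraries Sox2 went the other way in BHAM470 (22.5 against 28.6), BHAM479 (13.2 against 27.5) and BHAM480 (24.7 against 26.0). In EAR003 it was 75.5 against 18.5. The other genes, where both parts were present, kept the direction of BHAM359, except Esrrb in EAR001 (13.3 against 13.3). In BHAM359 the GC content of enriched sequence was also higher at all 10. Since 5fC is found mostly at CpG, a higher level where CpGs are dense and a higher level per CpG cannot be told apart in these values.

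Across all genes the class of the promoter went with enrichment. In BHAM359, 65.2% of 10652 promoters of the high CpG class were enriched, 47.2% of 4474 intermediate ones and 32.4% of 6920 low ones, and in EAR003 65.3, 51.9 and 36.3%. The high and intermediate classes were closer in BHAM479 (47.8, 46.0 and 35.7%) and EAR001 (42.9, 42.0 and 34.2%). The shares were 54.6, 47.3 and 35.5% in BHAM470 and 18.4, 15.1 and 10.9% in BHAM480. The members did not follow their class in each case. Pou5f1, with a promoter of the low class, was enriched in 4 libraries and Nanog, intermediate, in 5, while Sox2, with 159 CpGs, was enriched in 2 and Klf4, with the most CpGs, in 3. Zfp42, with more CpGs than Pou5f1 or Nanog, was enriched in 1.

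The members' upstream sequence was searched for letters that resemble the sites of the factors themselves, from 20 kb upstream to 1 kb downstream of the TSS and on both strands: ATGCAAAT, the octamer that Oct4 can bind, TTGTNATGC, a core of the composite site of Sox2 and Oct4, and TCAAGGTCA, which resembles the site of Esrrb. The first and second share the letters ATGC and can overlap, but no match of the members did. The octamer occurred at 5 of 10 members (69.9% of all genes), the composite core at 4 (39.8%) and the Esrrb letters at 5 (43.7%). Within the TSS window only Nanog held the composite core (4.07% of all genes) and only Zfp42 the octamer (8.88%), and none held the Esrrb letters (4.19%). The 5 matches of the composite core and the octamers nearest to the TSS of Zfp42 and Tbx3 are shown, each as 30 bases on the strand of the match with the matching letters in capitals, since they can be set beside the level there.
Pou5f1 composite core, chr17:35640988-35641017, minus strand: atcatgcacctTTGTTATGCatctgccgtc
Nanog composite core, chr6:122657425-122657454, minus strand: caccatggacaTTGTAATGCaaaagaagct
Sox2 composite core, chr3:34542770-34542799, plus strand: ctttggcttcTTGTCATGCtacaggtggaa
Prdm14 composite core, chr1:13119760-13119789, minus strand: gctaatgacgtTTGTTATGCctataaagta
Prdm14 composite core, chr1:13125845-13125874, plus strand: catttctattTTGTGATGCtgctggacacc
Zfp42 octamer, chr8:44392531-44392560, plus strand: cttgctcagttATGCAAATgcctcttcaga
Tbx3 octamer, chr5:120118676-120118705, minus strand: catgactttgcATGCAAATaatctggcctt
The match of Pou5f1 lay at position −1980 from its TSS, where the level was 4.06 in BHAM359 and 3.19 in BHAM470, −0.274 in BHAM479 and 0.609 in BHAM480, and it was enriched in 4 libraries. That of Nanog lay at position −147 and was enriched in 4 libraries, but not in BHAM359, where it fell in the background gap (level −1.33) between the domain of 12.6 and the one over the TSS. The match of Sox2, at position −6143, was in enriched sequence in BHAM359, BHAM470 and BHAM480, the last of which called its TSS background. Both matches of the composite core at Prdm14 were enriched in 4 libraries. That at position −2530 lay in background in BHAM359 (level −0.791), and that at position −8615 in background in BHAM470 (level −1.50). At position −4631 of this gene a match of the Esrrb letters lay in a narrow domain of BHAM359. Its level was 11.4, the highest of that locus at widths of 500 bp or more, and it was enriched in 4 of the other libraries. Of the 8 matches of the Esrrb letters, 5 lay in background in BHAM359 (levels −0.199 at Klf4, −1.73 and −1.56 at Klf2, −1.73 and 0.0275 at Sall4), and that of Klf4 was enriched in no library. At Zfp42 the octamer at position −183 lay in the enriched domain of BHAM359, with a level of 3.97, and in background elsewhere. The octamer of Tbx3, at position −2336, was enriched in 4 libraries, with a level of 3.75 in BHAM359. The other 4 octamers, at Nanog, Klf2, Zfp42 and Prdm14, lay in background in BHAM359, with levels of −0.999, −0.0368, −0.638 and −1.95. A match is a description of the letters and no evidence that a factor was bound.

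Over the 6 TSS levels, the protein-coding gene on another chromosome nearest to Pou5f1 was Pld3, at a Euclidean distance of 0.609 beside a median of 4.70 over all genes, the nearest to Nanog was Klk13 (0.683, median 4.33), and the nearest to Sox2 was Krtap1-3 (0.514, median 5.25), which also was high in BHAM359 (5.45) and EAR003 (3.47) and near 0 in the other 4.

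Other lists were counted in the same way. Of 31 other genes of the pluripotency network (32 listed), such as Lefty1, Fgf4 and Tcf7l1, 10 were enriched at the TSS in both wild-type libraries, 9 in both control libraries and 1 in both TDG KD libraries, and 13 in no library. As shares these are 32.3, 29.0, 3.23 and 41.9%, against 37.8, 33.5, 14.5 and 31.5% of all genes. Of 14 lineage transcription factor genes (16 listed), which direct differentiation and include Neurog2, Gata6 and Myod1, the counts were 10, 5 and 4, with 1 in no library (71.4, 35.7, 28.6 and 7.14%). Among 16 fibroblast genes, listed because of the feeders, the counts were 8, 8 and 3, with 4 in no library (50.0, 50.0, 18.8 and 25%), so that 3 were called in both TDG KD libraries, grown without feeders. The highest wild-type levels in that list were 4.59 at Twist2, 4.13 at Pdgfra and 3.72 at Col6a1. At the TSS the median difference of the fibroblast list between control and wild type was −1.42, beside −0.937 for the 10 members. It was −0.980 for the other network genes, −1.73 for the lineage list and −1.10 over all genes. In the 20 kb upstream it was 0.126 for the fibroblast list, −0.687 for the members and −0.338 over all genes. The part of feeder DNA in the wild-type levels was not tested. No gene of the 3 lists passed the threshold in either comparison in any of the 3 windows (limma).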

How the data were processed

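5fC was pulled down chemically, through a biotin probe on the formyl group, from 6 J1 ES cell libraries and sequenced beside 1 input library. According to the study's methods, the authors placed single-end reads on mm9, kept those of mapping quality 15 or more, and ran rseg on each replicate against input in bins of 100 bp. Each of the 6 deposited files lists domains with a state and a score, the mean pulldown minus input reads per bin, not scaled for depth. BWA 0.6.1 and CASAVA are named as tools by the submitters. How reads in repeats were placed before this is not given beyond the mapping quality.

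From these scores a length-weighted mean was taken per window over the domains that overlap it. The library mean was subtracted and the rest scaled to reads per kb per 10 M uniquely placed pulldown reads. This is a linear rescaling of the unit per bin and M reads first fixed for the test. The input term was not scaled to its own depth. The depths were those of the study's library table. Windows under 50% covered were left out, which left 22062 of 22359 genes at the TSS. Because domains are wide, neighboring genes share values and are not independent. Differences were tested with limma 3.58.1 in R 4.3.3 (empirical Bayes with a trend on mean level, two-sided, Benjamini-Hochberg over all genes, threshold 0.05) in 1 fit over the 3 conditions. The fit was also run on simulated data. There genes were independent and the added changes were larger than the member differences of the main fit. The simulation therefore does not show what the fit would detect at the sizes seen here. Windows and sequence were computed with Python 3.11.15, NumPy 2.4.6 and pandas 2.3.3, with genes from GENCODE M1 and sequence from mm9, whose chromosome lengths matched. High CpG promoters had a 500 bp stretch with 55% GC and a ratio of 0.75 or more, low ones none with a ratio of 0.48 or more. A no-overlap count is of genes whose libraries of 1 condition all lay above those of the other.

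The replicate numbers were given in accession order and pair nothing. All 10 members were named by rule, the nearest gene by pattern for Pou5f1, Sox2 and Nanog, and from other lists the 3 with the highest wild-type level. The members, lists and tests were chosen with earlier results of these data known. In a bulk pulldown, fewer cells with 5fC and less 5fC per cell cannot be told apart. Alternatives were another baseline, scaling, window, enrichment rule, fit and each library left out. The input library has no domain file and was used by the authors only.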

Additional observations from a re-analysis of the deposited data

How the results depend on the processing

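With 2 libraries a condition and 20.4 to 45.9 M reads, differences in the level at a TSS of about the size of the level itself could not be told from replicate spread. No member passed the threshold under any alternative that kept BHAM470. Without it the wild type is BHAM359 alone. Control minus wild type at the TSS was then −5.32 at Sox2 and −1.84 at Zfp42, beside a median of −1.77 over all genes. The cause of the changes below was not tested.

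For genes called in TDG KD minus control, the TSS count of 0 became 6 with the 4 siRNA libraries only, 18 with the name prefix as a replicate block and 10 with 2 kb either side. The gene record count of 0 became 141 and 9 with the first and second of these, and the upstream count of 37 became 23 with the block and 0 with the chromosome mean, with the library SD and without the trend. For control minus wild type, the TSS count of 0 became 1 with 2 kb either side, that of the gene record 1 without the trend, and the upstream count of 302 became 2 with the chromosome mean and 0 with the library SD and without the trend. The block by name prefix put no member past the threshold.

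Leaving out 1 library at a time, the counts ranged from 0 to 18, 0 to 170 and 16 to 63 at the TSS, gene record and upstream for TDG KD minus control, and from 2 to 5506, 0 to 5551 and 19 to 1304 for control minus wild type, the highest each without BHAM470. Where an arm was left with 1 library, the fit assumes that it varies like the others. The member differences at the TSS, TDG KD minus control, ranged from 0.210 to 1.89 at Pou5f1, −0.189 to 3.87 at Sox2, −1.77 to 1.78 at Nanog, −1.56 to 1.68 at Klf4, −0.445 to 1.35 at Klf2, −0.176 to 1.27 at Esrrb, −1.23 to 1.26 at Tbx3, −0.313 to 0.303 at Zfp42, −0.974 to 0.811 at Prdm14 and −0.835 to 1.42 at Sall4. For control minus wild type they changed sign at Sox2 (−5.32 to 0.331), Klf4 (−2.34 to 0.896), Tbx3 (−2.0 to 0.489), Zfp42 (−1.84 to 0.478) and Sall4 (−1.10 to 0.278), and stayed negative at the other 5.

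Dividing by the library SD (differences then in SD units) reversed TDG KD minus control at Nanog (−0.585), Klf4 (−0.30), Klf2 (−0.548), Tbx3 (−0.285) and Sall4 (−0.411), and control minus wild type at Klf4 (0.0988), Klf2 (0.954), Esrrb (0.101), Tbx3 (0.153) and Sall4 (0.474). Differences near 0 also changed sign: TDG KD minus control at Nanog with 500 bp either side (−0.00991) and at the 5′ end of the gene record (−0.00102), at Tbx3 with the chromosome mean (−0.0181) and 2 kb either side (−0.0294), and at Zfp42 with the chromosome mean (0.0542). Control minus wild type at Klf4 was 0.581 with 500 bp either side.

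Of the enriched members, BHAM359 gave 4 when 90% of the window was required and 3 when the lowest 25% of domains were dropped (19.3 and 36.6% of all genes). Both wild-type libraries then gave 3 and 2 (17.1 and 25.6%), and both control libraries 3 and 3 (31.3 and 27.8%). With unconfident sequence counted as enriched, BHAM480 and both TDG KD libraries gave 6 (48.1 and 41.3%). Without BHAM480, chosen after seeing the data, the TDG KD count was 9 and that of all libraries 5. The mean share of the gene record enriched in wild type was 55.7% without its first 1 kb against 59.1%.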
